A study of Mus musculus with 5 samples.

Results

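Type I interferon response genes are the genes that cells switch on, or need, when they answer interferon. The 33 genes described here were chosen by name from a list of interferon-stimulated genes and interferon transcription factors, and all 33 were found among the 51912 gene rows of the authors' deposited table. Reads were present for 31651 of those rows, and 17420 had an adjusted p-value, 28 of the 33 interferon response genes among them. By role, the genes comprise 5 transcription factors, 4 nucleic acid sensors, 4 IFIT genes, 5 OAS genes, 5 GTPases of the Mx, Gbp and Irg families, the ubiquitin-like modifier Isg15 with its protease Usp18, and 8 other effectors.

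Type I interferons bind a shared surface receptor whose Janus kinases phosphorylate STAT proteins, STAT2 among them. STAT2 joins IRF9 in a complex that binds the interferon-stimulated response element in the promoters of its target genes, and the products of those genes sense foreign RNA or DNA, degrade it, or block its translation. In brain, microglia, endothelium, astrocytes and neurons can all respond to interferon, and interferon target genes are known to be induced in microglia after ischemia.

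The comparison was between 2 sham and 3 stroke libraries of mouse RNA, all from strain C57BL/6 (source C57BL/6J). In the stroke group a filament blocked the middle cerebral artery for 30 min, mice with a blood flow drop of at least 80% were kept, and motor deficits were scored at 24 h. The labels give for the groups neither the tissue sampled, the time of sampling, the age or the sex, nor whether a library is 1 animal or a pool. Nor do they say whether the libraries of a group came from separate animals, so the p-values measure the spread between these libraries, which may be technical. Poly(A) selected, strand-marked libraries were sequenced, and the deposited table holds 1 row per gene for the stroke against sham comparison. The 5 neuron markers looked up, such as Snap25, had mean levels from 8334 to 65803 normalized reads.

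The table lists no value per library, but its mean, fold change and standard error together fix the whole reads behind most low and moderately expressed genes. Reads were recovered in this way for all 33 interferon response genes and for 7493 of the 7501 genes with an adjusted p and a mean up to 250. They are given as normalized reads, that is reads divided by the library's size factor. Size factors were 1.16, 1.13 and 1.12 for the stroke libraries, here called A, B and C in that order, and 0.945 and 0.734 for the sham libraries, called the deeper and the shallower one. A single read therefore counts as 0.864 normalized reads in stroke library A and as 1.36 in the shallower sham library. Nothing in the files ties these libraries to the replicate numbers of the labels.

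The promoter sequence that interferon signalling acts on can be shown for many of these genes. RefSeq promoters (GRCm38.p6, 250 bases before to 50 bases after the start of a gene) were present for 24 of the 33 genes. The core letters of the interferon-stimulated response element, TTTCNNTTTC on either strand (GAAANNGAAA on the other), occurred for 13 of these 24 genes (54.2%). A gene counted if any of its promoters held the letters. The share was 3.99% of all 27025 genes with such promoters and 3.69% of the 12092 of them with an adjusted p. A second motif, TTCNNNGAA, reads the same on both strands and is a core motif of STAT proteins. It occurred for 5 of the 24 genes (20.8%) and for 9.55% of all genes with such promoters. A match is a run of letters, not a measured binding site, and the 2 motifs overlap by a few bases in Bst2. The windows below are a selection from the genes with the response element letters, which the capitals mark. Each has 10 bases on each side and is on the strand of the gene.
Ifit1, chr19:34640775-34640804, plus strand, motif 104 bases before the start: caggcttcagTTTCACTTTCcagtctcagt
Ifit1, chr19:34640794-34640823, plus strand, motif 85 bases before the start: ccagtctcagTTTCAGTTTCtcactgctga
Ifit3, chr19:34583363-34583392, plus strand, motif 156 bases before the start: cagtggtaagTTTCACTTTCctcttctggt
Ifit3, chr19:34583397-34583426, plus strand, motif 122 bases before the start: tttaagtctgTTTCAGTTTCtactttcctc
Ifit3b, chr19:34607759-34607788, plus strand, motif 188 bases before the start: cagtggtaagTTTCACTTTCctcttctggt
Gbp3, chr3:142559989-142560018, plus strand, motif 45 bases before the start: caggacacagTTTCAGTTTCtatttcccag
Gbp2, chr3:142620594-142620623, plus strand, motif 59 bases before the start: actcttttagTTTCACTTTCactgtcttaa
Rsad2, chr12:26456553-26456582, minus strand, motif 120 bases before the start: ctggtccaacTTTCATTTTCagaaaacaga
Isg15, chr4:156200877-156200906, minus strand, motif 78 bases before the start: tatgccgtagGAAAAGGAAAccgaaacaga
Oas1a, chr5:120907526-120907555, minus strand, motif 20 bases before the start: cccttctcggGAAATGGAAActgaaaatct
Stat2, chr10:128270266-128270295, plus strand, motif 222 bases before the start: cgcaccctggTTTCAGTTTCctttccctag
Ifit1, Ifit3, Ifit3b, Gbp3, Oas1a and Bst2 each carried the motif at 2 places, which overlap in Gbp3, Oas1a and Bst2, and Isg15 carried it at 3, each overlapping the next. The Ifit3 and Ifit3b windows hold the same letters, and both genes lie in the same gene cluster. Among genes with an adjusted p, the 11 with the motif had a median log2 fold change of 0.94, with 9 above 0, in the authors' deposited table. The 10 without it had a median of 0.19 there, with 6 above 0. For TTCNNNGAA the order was the reverse in the authors' deposited table. The 4 genes with it had a median of 0.05, with 2 above 0, and the 17 without it one of 0.85, with 13 above 0. The differences between these medians are given as a description and were not tested.

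None of the 28 interferon response genes with an adjusted p passed the threshold of 0.05 in the authors' Wald test (DESeq2). Over all 17420 genes tested that way, 1.56% passed, 0.775% higher and 0.786% lower in stroke, so a count of 0 does not set these genes apart. At an unadjusted p below 0.05, 7 of the 28 (25%) were higher in stroke and 0 lower, against 4.84% higher and 5.66% lower over all genes. The 7 were Ifit1, Ifit3, Ifit3b, Gbp3, Iigp1, Mx1 and Ifi204. With limma on the recovered reads, also 0 of the 33 passed (smallest adjusted p of 0.501), where 0.0132% of the 7553 recovered genes did, and 10 were higher and 0 lower at an unadjusted p below 0.05, against 3.97% and 3.99% of the recovered genes. That count of 10 was 5, 3 and 5 without stroke library A, B or C. Of the 7553 recovered genes, 300 were higher at that p with all libraries, and 187, 110 and 201 in those fits. In simulated data of this design limma rarely called changes of the size seen for most of these genes, so a count of 0 from it says little. At an adjusted p below 0.1 in the authors' test 3 passed, Gbp3, Ifit1 and Iigp1, all higher, where 1.11% of all genes did. The median log2 fold change of the 28 genes was 0.79 in the authors' deposited table, with 22 above 0, against a median of -0.02 with 47.2% above 0 over all tested genes.

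**Figure D1:**
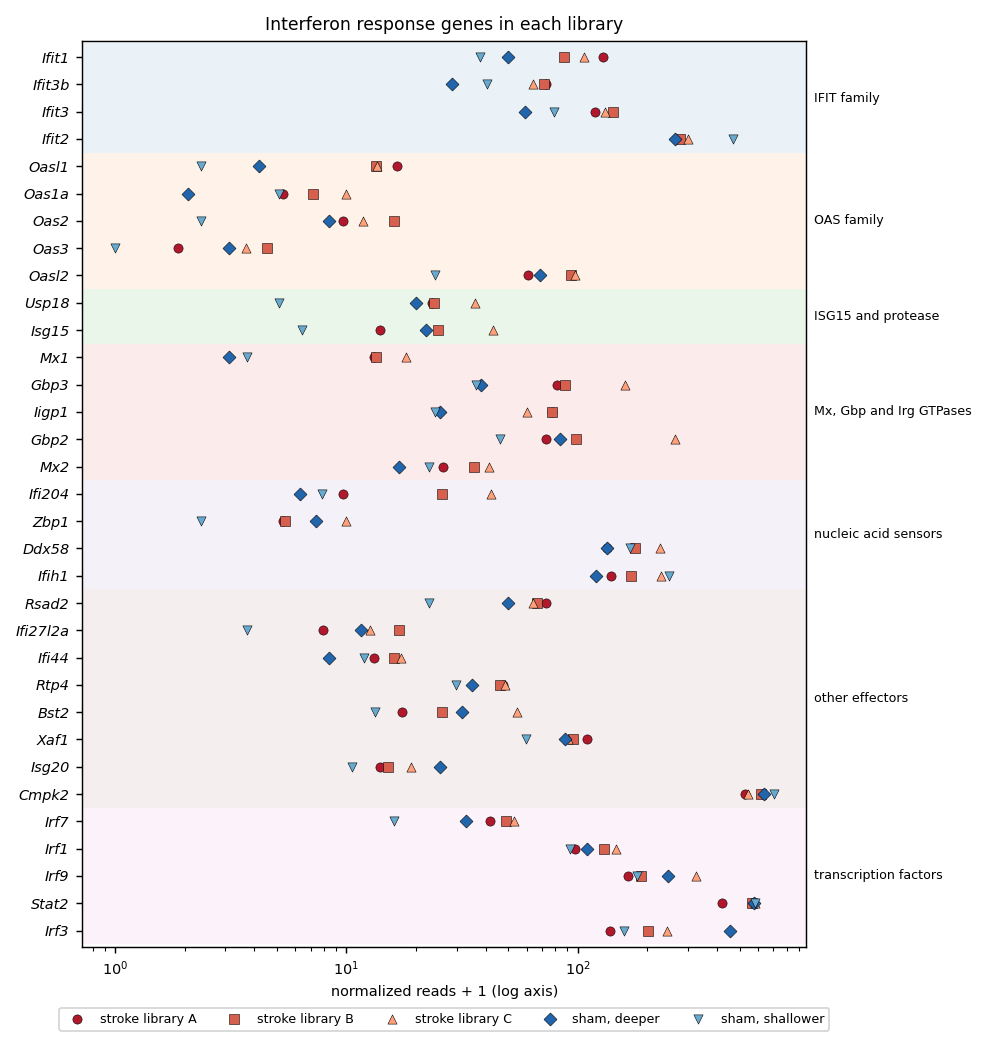
Normalized reads plus 1 (log axis) of each of the 33 interferon response genes in each of the 5 libraries, grouped by role, with red to orange symbols for the 3 stroke libraries and blue symbols for the 2 sham libraries. For 17 genes all 3 stroke symbols lie to the right of both sham symbols, as for Iigp1, and for Cmpk2 they all lie to the left.

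Every stroke library exceeded both sham libraries for 17 of the 33 genes (51.5%), a position held by 10.0% of the 7493 recovered genes with an adjusted p and a mean up to 250. The opposite position, every stroke library below both sham libraries, was found for 1 of the 33, Cmpk2, against 16.5% of the recovered genes. The groups overlapped for the other 15 genes. Without the shallower sham library the count of genes with every stroke library above was 20, and without the deeper one it was 26, against 25.9% and 32.4% of all recovered genes.

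**Figure D2:**
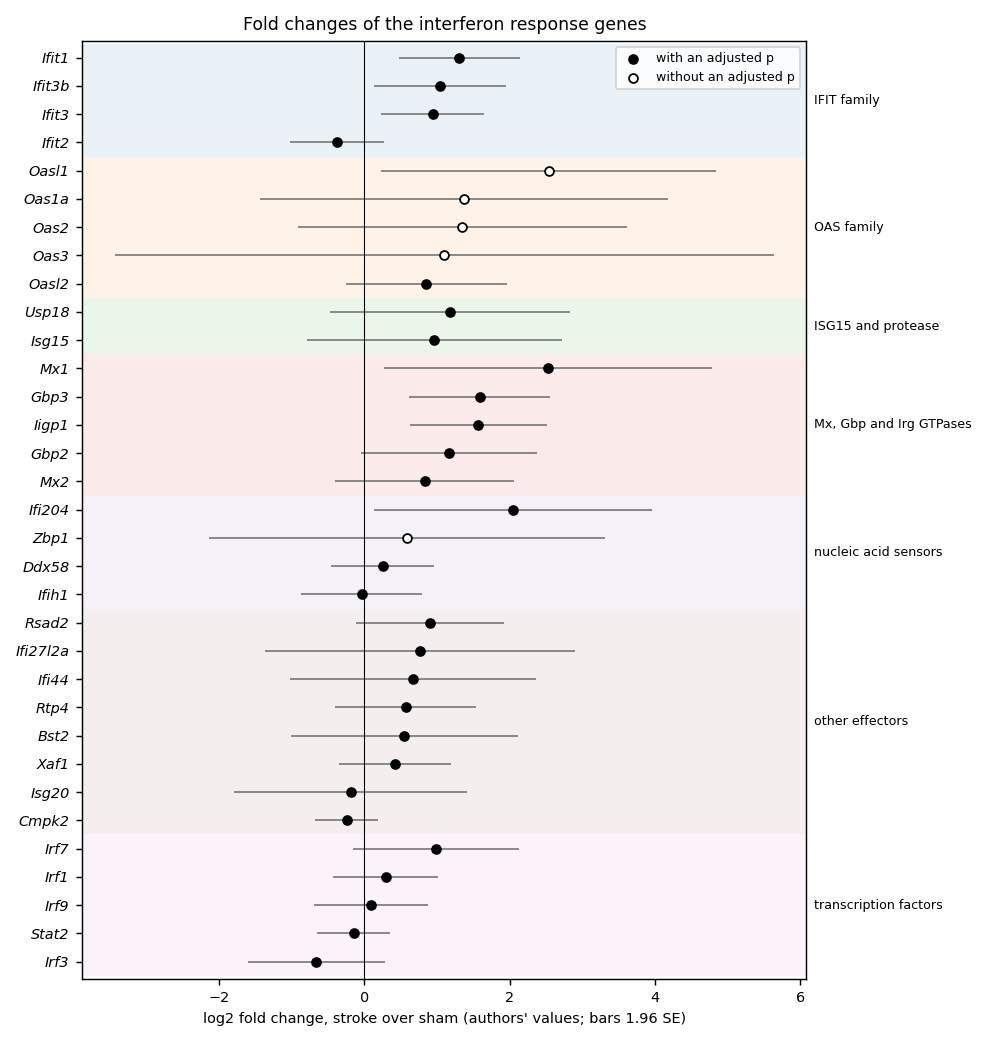
Log2 fold change of stroke over sham in the authors' deposited table for each of the 33 interferon response genes by role, with bars for the 95% interval, and open circles for the 5 genes without an adjusted p. Of the 33 values, 27 lie above 0, and the bars of most genes cross 0.

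Interferon itself was close to the limit of detection. Of 21 ligand genes looked up (type I, II and III interferons), 17 had no read in any library, and the other 4 held 5 reads between them, with at most 1 read of a gene in a library. A count of 0 allows up to 3 reads in a library, so interferon transcripts were at or under the limit of detection at this depth.

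The receptor and kinase genes that carry the signal inward were at similar levels in both groups. None of 10 was called in the authors' deposited table, none had an unadjusted p below 0.05, and their median log2 fold change was -0.06. Jak1, the kinase with the smallest p and the highest level per kilobase of exon among them, had a log2 fold change of 0.27 (standard error 0.23, adjusted p of 0.814) in the authors' deposited table. Jak2 followed with 0.26 (standard error 0.22, adjusted p of 0.824) in the authors' deposited table.

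Of the 5 transcription factors, 3 had log2 fold changes above 0 and 2 below in the authors' deposited table. Stat2, the partner of IRF9, was the most abundant of them per kilobase of exon, at 92.0 mean normalized reads per kilobase. Its normalized reads were 421, 562 and 583 in stroke libraries A, B and C and 577 and 581.8 in the deeper and the shallower sham library. Stroke library A alone stood below the other four. The log2 fold change of Stat2 in the authors' deposited table was -0.15 (standard error 0.25, adjusted p of 0.949).

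Irf3, which sensors activate and which starts interferon transcription, had 137, 201 and 243 normalized reads in stroke, with 454 and 158 in the deeper and the shallower sham library. The deeper sham library was the highest and the shallower one fell among the stroke values, so the groups overlapped. Irf7, the interferon-induced factor that amplifies interferon production, had 40.6, 47.7 and 52.0 in stroke, with 31.8 and 14.99 in the deeper and the shallower sham library. All 3 stroke libraries were above both sham libraries, which differed from each other by more than the stroke libraries did. Irf7 was not called, and the authors' deposited table put it at 0.98 on the log2 scale (standard error 0.58, adjusted p of 0.598).

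Irf9, the DNA-binding part of the STAT complex, ranged from 163 to 324 normalized reads in stroke, with 243 and 178 in the deeper and the shallower sham library. Irf1, a factor induced most strongly by interferon gamma, ranged from 95.9 to 145 in stroke, with 109 and 91.3 in sham. Both genes overlapped between the groups.

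Among the 4 nucleic acid sensors, only Ifi204 had every stroke library above both sham libraries, and the others overlapped between the groups. Ddx58, which encodes RIG-I and was the most abundant sensor per kilobase of exon, had 133, 176 and 226 normalized reads in stroke libraries A, B and C and 132 and 168 in the deeper and the shallower sham library. Ifih1, which encodes the long double-stranded RNA sensor MDA5, had 137, 169 and 228 in stroke and 119 and 248 in sham. Both genes overlapped between groups, with log2 fold changes of 0.25 (standard error 0.36, adjusted p of 0.932) and -0.04 (standard error 0.43, adjusted p of 0.994) in the authors' deposited table.

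Ifi204, of a family of nuclear DNA sensors, had 8.64, 24.8 and 41.2 normalized reads in stroke libraries A, B and C and 5.29 and 6.81 in sham. Every stroke library was above both sham libraries, but stroke library A lay close to the sham values and C was the highest. The authors' deposited table gave Ifi204 a log2 fold change of 2.05 (standard error 0.98, p of 0.0364, adjusted p of 0.414). Of its 50-base exon windows, 20.02% also occur in other genes, Ifi211 first among them, so its reads may be shared. Zbp1, a sensor of left-handed nucleic acid, had 4.32, 4.42 and 8.96 normalized reads in stroke, with 6.35 and 1.36 in the deeper and the shallower sham library. The groups overlapped for Zbp1, and it had no adjusted p.

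The IFIT genes, whose proteins bind RNA with foreign ends, lie side by side at chr19:34550694-34650009, and 3 of the 4 stood higher in stroke. Ifit1 had 128, 85.8 and 105 normalized reads in stroke libraries A, B and C and 48.7 and 36.8 in the deeper and the shallower sham library. Every stroke library was above both sham libraries. The log2 fold change of Ifit1 was 1.31 in the authors' deposited table (standard error 0.43, p of 0.00212, adjusted p of 0.0958), a fold of 2.47, and the adjusted p did not pass 0.05.

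Ifit3 had 118, 141 and 129.9 normalized reads in stroke, with 58.2 and 77.7 in the deeper and the shallower sham library. Its near copy Ifit3b had 71.7, 70.7 and 62.7 against 27.5 and 39.5. For both genes the stroke libraries lay close together and above both sham libraries, of which the shallower one was here the higher. Ifit3 had a log2 fold change of 0.94 (standard error 0.36, p of 0.00943, adjusted p of 0.217) and Ifit3b one of 1.04 (standard error 0.46, p of 0.0248, adjusted p of 0.348) in the authors' deposited table. The pair is uncertain as separate measurements, because 51.2% of the 50-base exon windows of Ifit3 are also in Ifit3b, and 44.5% of those of Ifit3b are in Ifit3. How reads that fit several places were treated is not given in the sources used here.

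Ifit2, the neighbour at the other end of the cluster, did not follow. It had 264, 276 and 299 normalized reads in stroke and 261 and 467 in the deeper and the shallower sham library. The deeper sham library was level with stroke and the shallower one stood above all others, whereas for Ifit1 the shallower sham library was the lowest. In the authors' deposited table its log2 fold change was -0.38 (standard error 0.33, adjusted p of 0.826). Per kilobase of exon Ifit2 was the most abundant IFIT gene, at 79.8 mean normalized reads per kilobase against 60.1 for Ifit3, 30.4 for Ifit1 and 27.2 for Ifit3b. Its RefSeq promoter held no response element letters in this window.

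Most OAS genes encode enzymes that, on double-stranded RNA, make the oligoadenylates that activate RNase L. The OAS genes were the sparsest role, and 4 of the 5 had means below 9.19, the smallest mean with an adjusted p. Oasl2, the most abundant, had 59.6, 92.8 and 95.9 normalized reads in stroke libraries A, B and C and 67.7 and 23.2 in the deeper and the shallower sham library. The deeper sham library was above stroke library A, and the shallower one was the lowest. Oasl2 had a log2 fold change of 0.85 (standard error 0.57, adjusted p of 0.701) in the authors' deposited table.

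Oasl1, an OAS-like protein known to hold back translation of Irf7, had 15.6, 12.4 and 12.5 normalized reads in stroke, with 3.18 and 1.36 in sham. Every stroke library was above both sham libraries, the shallower of which held 1 read. Its log2 fold change was 2.53 in the authors' deposited table (standard error 1.17, p of 0.0308), and no adjusted p was given. Oas2 ranged from 8.64 to 15.03 in stroke, with 7.41 and 1.36 in sham, and Oas1a from 4.32 to 8.96, with 1.06 and 4.09. Neither gene overlapped between the groups, for Oas1a by less than the worth of a single read. Oas1a shares 57.6% of its exon windows with Oas1g and is uncertain for that reason. Oas3 held at most 3.54 normalized reads in any library and none in the shallower sham library.

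The GTPases held the 2 smallest p-values of the set, those of Iigp1 and Gbp3. Iigp1, an immunity-related GTPase that acts on the vacuoles of intracellular parasites, had 76.1, 76.0 and 59.1 normalized reads in stroke libraries A, B and C and 24.3 and 23.2 in the deeper and the shallower sham library. The 2 sham libraries differed by about 1 normalized read, and every stroke library was far above them. The authors' deposited table gave Iigp1 a log2 fold change of 1.57 (standard error 0.48, p of 0.00116, adjusted p of 0.0629), a fold of 2.96.

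Gbp3, a guanylate-binding protein, had 80.4, 86.6 and 159 normalized reads in stroke and 37.0 and 35.4 in sham. Here too the sham libraries were nearly equal and every stroke library was higher, with C the highest. Its log2 fold change was 1.59 in the authors' deposited table (standard error 0.49, p of 0.00132, adjusted p of 0.0691), a fold of 3.00. Its cluster neighbour Gbp2, the most abundant GTPase of the set per kilobase of exon, had 71.7, 97.2 and 262 in stroke and 82.6 and 44.96 in sham. Stroke library C was far above the rest, and A lay below the deeper sham library, so the groups overlapped. Gbp2 had a log2 fold change of 1.17 (standard error 0.62, adjusted p of 0.510) in the authors' deposited table.

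Mx1 and Mx2 encode dynamin-like GTPases, and the Mx1 gene of C57BL/6 and most other inbred strains is known to carry a deletion that leaves its protein inactive. Mx1 had 12.1, 12.4 and 17.0 normalized reads in stroke, with 2.12 and 2.73 in sham, 2 reads in each sham library. Every stroke library was above both sham libraries. Its log2 fold change of 2.53 in the authors' deposited table (standard error 1.15, p of 0.0279, adjusted p of 0.365) rests on these few sham reads. Mx2 ranged from 25.1 to 40.3 in stroke, with 15.9 and 21.8 in sham, and again did not overlap.

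Isg15, a ubiquitin-like protein that is attached to other proteins, had 12.96, 23.9 and 42.1 normalized reads in stroke libraries A, B and C and 21.2 and 5.45 in the deeper and the shallower sham library. The groups overlapped, with the deeper sham library between A and B. Its log2 fold change was 0.96 in the authors' deposited table (standard error 0.90, adjusted p of 0.854). Usp18, the protease that removes ISG15 and also dampens the interferon receptor, had 22.5, 23.0 and 34.9 in stroke and 19.1 and 4.09 in sham. Every stroke library was above both sham libraries, but A exceeded the deeper one by little.

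Of the 8 other effectors, 4 had every stroke library above both sham libraries and 1 had every stroke library below. Rsad2, whose product viperin makes a chain-ending nucleotide, had 71.7, 65.4 and 62.7 normalized reads in stroke, with 48.7 and 21.8 in the deeper and the shallower sham library. Cmpk2, a mitochondrial nucleotide kinase whose gene lies beside Rsad2 at chr12:26442746-26479837, had 528, 619.7 and 544 against 637 and 700.3. All 3 stroke libraries of Rsad2 were above both sham libraries, and all 3 of Cmpk2 were below them. Neither was called, with log2 fold changes of 0.90 (standard error 0.52, adjusted p of 0.577) for Rsad2 and -0.25 (standard error 0.22, adjusted p of 0.839) for Cmpk2 in the authors' deposited table.

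Rtp4, a chaperone of receptor transport that also limits virus growth, ranged from 45.1 to 47.5 normalized reads in stroke, with 33.9 and 28.6 in sham. Xaf1, a partner of the apoptosis inhibitor XIAP, ranged from 89.6 to 109 with 86.8 and 58.6, and Ifi44 from 12.1 to 16.1 with 7.41 and 10.9. These 3 genes did not overlap between groups, although the gap for Xaf1 was small against the distance between the sham libraries. Bst2, which tethers budding virus to the cell, ranged from 16.4 to 53.7 in stroke, with 30.7 and 12.3 in sham. Isg20, an exonuclease for RNA, ranged from 12.96 to 17.9 with 24.3 and 9.54, and Ifi27l2a from 6.91 to 15.9 with 10.6 and 2.73. These 3 overlapped between the groups.

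Level and direction were linked within the set. Among genes with a mean up to 250 normalized reads, 22 of the 25 interferon response genes with an adjusted p had a log2 fold change above 0, and their median was 0.85 in the authors' deposited table. Over all 7501 tested genes in that range, 36.1% were above 0 and the median was -0.20. The 3 genes with means above 250, Cmpk2, Stat2 and Ifit2, all had values below 0. Of the 3394 tested genes with means from 250 to 700, 45.7% were above 0, and their median was -0.03. Among the 7 genes whose mean reached 5 CPM (132 normalized reads), the median log2 fold change was -0.15 in the authors' deposited table. So the positive median came from the less abundant genes. Per kilobase of exon, Cmpk2 was the most abundant of the 33 (146 mean normalized reads per kilobase) and Oas3 the least (0.26).

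**Figure D3:**
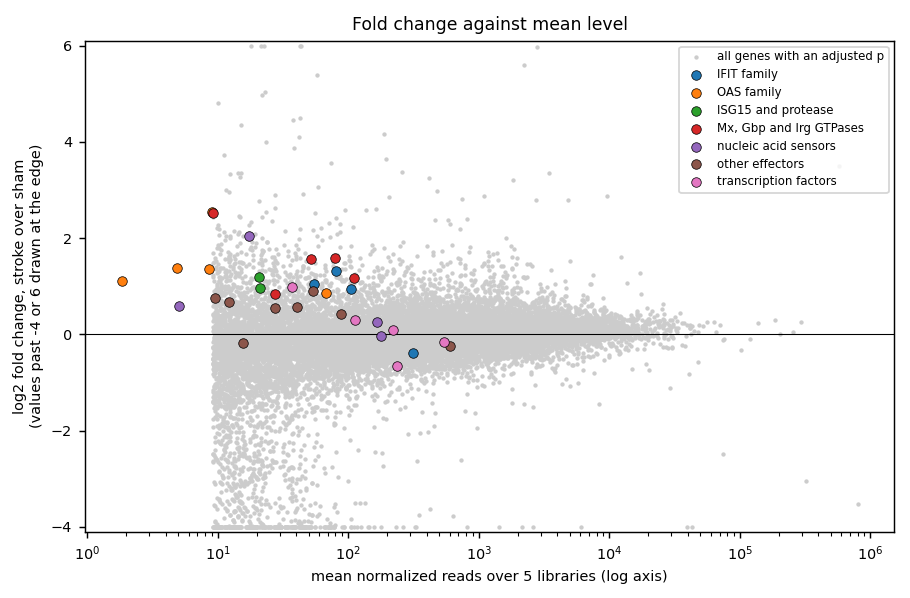
Log2 fold change of stroke over sham against mean normalized reads over 5 libraries (log axis), both from the authors' deposited table, for all genes with an adjusted p (grey) and the 33 interferon response genes (coloured by role). Of the 30 interferon response genes with a mean up to 250, 27 lie above 0, and the 3 to the right of that mean lie below 0.

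The libraries of each group did not act alike across the set. Stroke library C was the highest of the 5 for 18 of the 33 genes, a position it held for 14.3% of all recovered genes with an adjusted p. The shallower sham library was the lowest for 19 of the 33, against 28.5% of all recovered genes. On the log2(normalized reads + 1) scale, the median difference from the gene's own mean over libraries was -0.05, 0.34 and 0.52 in stroke libraries A, B and C, and -0.12 and -0.83 in the deeper and the shallower sham library. The deeper sham library thus lay close to stroke library A, and the distance between the sham libraries exceeded that between A and C. The median over the 33 genes of the stroke minus sham difference on this scale was 0.86, and it was 0.44 without the shallower sham library and 1.13 without the deeper one.

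**Figure D4:**
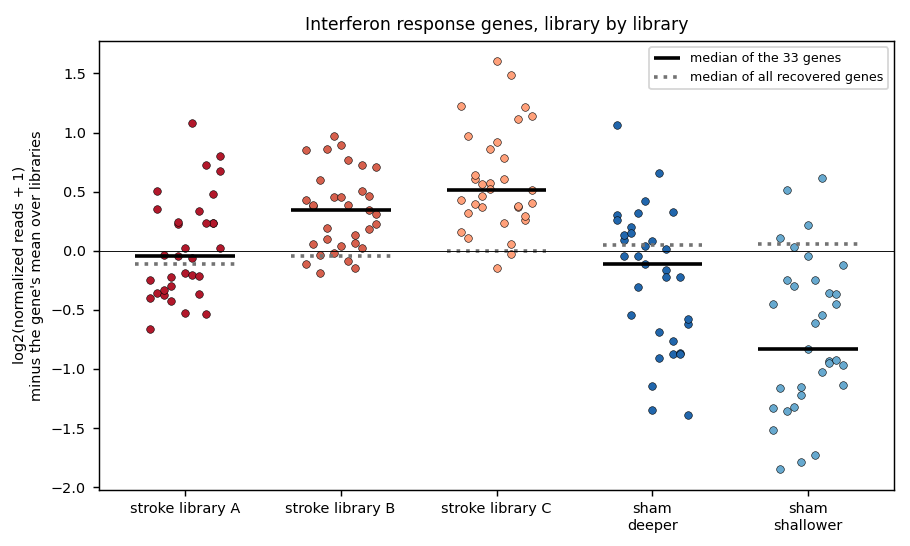
Each of the 33 interferon response genes in each library as log2(normalized reads + 1) minus the gene's mean over the 5 libraries, with the median of the 33 genes (black line) and of all recovered genes (dotted line). The medians of the 33 genes run from -0.83 in the shallower sham library to 0.52 in stroke library C, while those of all recovered genes stay between -0.11 and 0.05.

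The roles differed in how much the libraries spread. Summed normalized reads of the 5 GTPases were 265, 307 and 538 in stroke libraries A, B and C, against 162 and 128 in the deeper and the shallower sham library. All 3 stroke sums were above both sham sums, and C was far above A and B. Sums of the 5 OAS genes were 89.0, 129.95 and 131 in stroke against 81.5 and 30.0 in sham, so stroke library A was near the deeper sham library. IFIT sums were 581, 574 and 597 against 396 and 621, with Ifit2 the larger part of the shallower sham value. The 5 transcription factors summed to 857, 1125 and 1347 in stroke and 1415 and 1025 in sham, where the groups overlapped.

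Markers of other cells also differed between the libraries. The 6 microglia markers with recovered reads (of 8) were all lowest in the shallower sham library, where they summed to 843 normalized reads, against 2072 in the deeper sham library and 1547 to 1894 in stroke. Stroke library C was highest for 18 of the 33 interferon response genes, but not for most of these markers. Their median difference from the gene's own mean, on the log2 scale used above, was 0.39, 0.57 and -0.32 in stroke libraries A, B and C. It was 0.31 and -0.86 in the deeper and the shallower sham library. Cx3cr1 alone held 1165 of the 1853 normalized reads summed in C. The 4 recovered choroid plexus markers (of 5) were all highest in the deeper sham library, with a sum of 1399 against 204 to 369 elsewhere, and the 5 recovered endothelial markers (of 6) summed to 1592 and 1691 in sham and 2003 to 2721 in stroke. Of blood cell markers, the lymphocyte genes Nkg7, Ms4a1, Cd8a and Cd3d, the neutrophil genes Ly6g, Elane and Camp and the monocyte gene Ly6c2 had means at or below 1 normalized read. The 7 lymphocyte markers with reads (of 8) summed to 284 to 472 in stroke and to 383 and 485 in sham, mostly from Cd4 and Trbc2. The 8 neutrophil markers summed to 60.9 to 121 in stroke and to 99.5 and 17.7 in sham, and the 4 recovered monocyte markers (of 6) to 21.6 to 22.4 and to 16.9 and 13.6. The part of these markers in the interferon values was not tested, and in such bulk samples fewer cells of a type and less RNA per cell cannot be told apart.

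Without the deeper sham library, limma on the recovered reads called 11 of the 33 genes, with Ifit2 lower and Gbp3, Ifit1, Iigp1, Irf7, Mx1, Oas2, Oasl1, Oasl2, Rsad2 and Usp18 higher in stroke. The sham group is then 1 library, assumed to vary as the stroke libraries do, and 19.8% of all 7553 recovered genes were called in that fit, against 2.69% without the shallower sham library. Those calls therefore set stroke against the shallower sham library alone. The share over all recovered genes is for either direction, and without the deeper sham library more of them were called lower than higher in stroke.

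Beyond these 33, a list of 136 other genes of the interferon pathway was read from the same table, of which 103 had an adjusted p. By the authors' deposited values, 3 of the 103 passed the threshold, all higher in stroke, and 0 lower, beside the 1.56% of all genes given above. Their median log2 fold change was 0.26, and 12 were higher and 0 lower at an unadjusted p below 0.05. The 3 called genes were Gbp5, Slfn5 and Socs3.

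Gbp5, a guanylate-binding GTPase that promotes inflammasome assembly, had 106, 102 and 148 normalized reads in stroke libraries A, B and C and 29.6 and 25.9 in the deeper and the shallower sham library. Slfn5, a Schlafen gene induced by interferon, had 389.8, 415 and 385 in stroke and 112 and 215 in sham. Every stroke library of both genes was above both sham libraries. The log2 fold changes in the authors' deposited table were 2.09 for Gbp5 (standard error 0.44, adjusted p of 0.00081) and 1.28 for Slfn5 (standard error 0.34, adjusted p of 0.0184). Socs3, a feedback inhibitor of cytokine receptors that interleukins also induce, had a log2 fold change of 1.92 (standard error 0.48, adjusted p of 0.0113) in the authors' deposited table. Limma on the recovered reads called 0 of the 97 pathway genes it could test (smallest adjusted p of 0.439), which says as little as for the 33 genes, with 10 higher and 1 lower at an unadjusted p below 0.05.

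By role, the called genes were 2 of 55 other interferon-stimulated genes and 1 of 12 feedback genes. None of 18 genes of nucleic acid sensing and adaptors was called, although Trim25, which activates RIG-I, Unc93b1, which moves nucleic acid receptors to endosomes, and Tlr9, a DNA receptor, had an unadjusted p below 0.05. Trim25 had 238, 292 and 269 normalized reads in stroke and 179 and 136 in sham, and a log2 fold change of 0.75 (standard error 0.29, adjusted p of 0.223) in the authors' deposited table. Unc93b1 had 252, 286 and 247 in stroke against 197 and 88.6, and a value there of 0.87 (standard error 0.39, adjusted p of 0.359). The groups did not overlap for either gene. Adar, the RNA editing enzyme and most abundant of that role, had a log2 fold change of 0.27 (standard error 0.19, adjusted p of 0.724) in the authors' deposited table.

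Of 8 other interferon regulatory factors and their binding partners none was called, and 1 had an unadjusted p below 0.05. Irf2bpl had the smallest p of that role and was its most abundant gene, with a log2 fold change of 0.90 (standard error 0.29, adjusted p of 0.0829) in the authors' deposited table, and Irf5 followed with 0.68 (standard error 0.40, adjusted p of 0.593). Among feedback genes the phosphatase Ptpn1, which acts on Janus kinases, had 0.64 (standard error 0.24, adjusted p of 0.195) and Otud5, a deubiquitinase and per kilobase of exon the most abundant, 0.04 (standard error 0.22, adjusted p of 0.990) in the authors' deposited table. B2m, the light chain of MHC class I and per kilobase of exon the most abundant of the other interferon-stimulated genes, had 0.02 (standard error 0.25, adjusted p of 0.997) there.

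**Figure D5:**
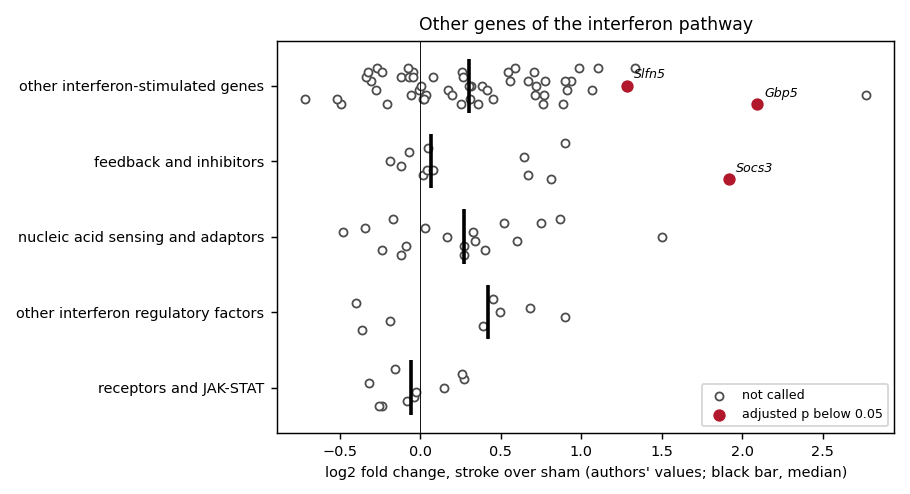
Log2 fold change of stroke over sham in the authors' deposited table for the 103 other interferon pathway genes with an adjusted p, by role, with called genes filled red and the median of each role as a black bar. Gbp5, Slfn5 and Socs3 are the called genes, all above 0, and the role medians run from -0.06 for receptors and JAK-STAT genes to 0.42 for other interferon regulatory factors.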

How the data were processed

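Mouse RNA of 2 sham and 3 stroke samples was made into libraries with a KAPA stranded mRNA kit, per the labels' protocols. Per the submitters' processing notes, FastQC, STAR 2.5.2b, featureCounts 1.5.1 and DESeq2 1.14.1 were used with build GRCm38; the sources used here do not say how strand and multiply placed reads were handled. The authors deposited 1 table of their stroke against sham comparison: the mean signal (normalized reads over all libraries), the log2 fold change with its standard error, the Wald statistic (a score), the p-value and its Benjamini-Hochberg adjusted p-value. The statistic equals the fold change over its error in every row to within 1.31e-07. The means sum to 2.65e+07 normalized reads, and library totals are not given, so the depth of each library is known only through its size factor.

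The planned count test (edgeR for a table of counts per library) was not used, since the table holds results, and the authors' deposited Wald test is the main one, with a call at an adjusted p below 0.05. Size factors were taken from the deposited means of genes with a single read, and each such library was put in its group by the sign of the authors' fold change. The search covered listed genes with a mean up to 700, and all genes with an adjusted p and a mean up to 250. It looked for sets of 5 whole read numbers with the deposited mean that give back the deposited fold change to within 5e-09. For this the authors' fit, which did not shrink fold changes, was repeated. Except at low means, only sets whose sham sum lay near that expected from the fold change were tried. A faster approximate fit screened those sets first. Of 7561 genes searched, 7553 had exactly 1 solution among the sets tried, 8 had none and 0 had more than 1. The search and the limma step were tested on simulated data, where limma rarely called changes of the size seen in most interferon response genes. Recovered reads were compared with limma 3.58.1 (R 4.3.3, trend and robust variance) on log2(normalized reads + 1), with Benjamini-Hochberg adjustment over all recovered genes. Differences on that scale understate the change of low genes. The search ran in Python 3.11.15 with numba 0.67.0. Exon lengths, shared 50-base windows and positions come from GENCODE M21 (GRCm38).

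Values per library are given for the interferon response genes, with fold change, error and adjusted p for those with an adjusted p below 0.5 or the most abundant of a role per kilobase, and for others where a comparison needs them; from the pathway list, called genes, the 2 of smallest p per role and the most abundant one. The genes, roles and lists were chosen with earlier results of these data known. Columns of single samples that could not be tied to one numbered 0.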

Additional observations from a re-analysis of the deposited data

How the results depend on the processing

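No paired analysis was possible because the deposited table carries no replicate numbers, though the labels number the libraries of both groups. With Benjamini-Hochberg adjustment over every gene with a p-value, over genes with at least 5 CPM, or against a fold of 1.5, 0 interferon response genes were called, as in the authors' test; at an adjusted p below 0.1 the count was 3 (Gbp3, Ifit1 and Iigp1), beside 1.11% of all genes higher. Limma gave 0, and 0 to 11 with 1 library left out at a time, the latter without the deeper sham library; its counts of 0 show no stability, since in simulated data it rarely called changes of the size most of these genes show. For the 3 called pathway genes, the count was 3 over every gene with a p-value, 2 at 5 CPM (without Gbp5), 0 against a fold of 1.5, 5 at an adjusted p below 0.1 (with Helz2 and Irf2bpl), 0 with limma, and 0 to 12 with a library left out, 12 without the deeper sham library and 4 without the shallower one. Each fit without a sham library sets stroke against 1 sham library alone, so its counts need the share of all recovered genes called, given above. That share, too, was far larger without the deeper sham library, where the counts of both gene lists were highest. Those counts therefore do not set the pathway genes apart. The median log2 fold change of 0.79 was -0.15 over the 7 genes with at least 5 CPM and 0.85 over all 33. The median difference of recovered reads of 0.86 was 0.94 and 0.61 with pseudocounts of 0.5 and 5, 0.70 over the 26 genes with a mean of at least 10, and 0.44 to 1.13 with a library left out. The 17 genes with every stroke library above both sham libraries became 17 and 15 with sham size factors multiplied or divided by 1.1. The share over all 7493 recovered genes was then 14.1% and 6.90%, against 10.0% unchanged. Without stroke library A, B or C the counts were 24, 17 and 17, beside 14.4%, 11.9% and 14.5% of all recovered genes. Without the deeper or the shallower sham library they were 26 and 20, beside 32.4% and 25.9%. Where the alternatives tested fewer genes or libraries, that is part of their construction; for the rest the cause was not tested. Depth limits genes with few reads, such as Oas3, Oas1a, Zbp1, Mx1 and Ifi27l2a, where 1 read is a visible step in the values.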
